A study of Mus musculus with 12 samples.

Results

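Uninfected Sca-high CommaDβ cells were compared with uninfected Sca-low CommaDβ cells over all genes of the deposited RNA-seq table. The comparison used 6 of the 12 libraries of the study, 3 of Sca-high cells (libraries 1 to 3) and 3 of Sca-low cells (libraries 4 to 6), chosen by the sort label of each library and by nothing that was measured in it. CommaDβ is a line of normal mouse mammary epithelial cells that holds a fraction with high and a fraction with low surface Sca-1, which were separated by fluorescence-activated cell sorting. Neither fraction was infected or treated, and both came from the same line grown with serum, insulin and EGF. The other 6 libraries are Sca-high cells that carry the doxycycline-inducible pSliK34a vector, 3 left uninduced (Sca-high NT) and 3 after 24 h of doxycycline (Sca-high 34a). They entered the filter on low genes and the model's estimate of spread, and otherwise only their levels are quoted. The genotype labels of these 6 libraries are reversed relative to their titles, which were followed here, and reads at the Mir34a locus were 3, 8 and 4 in the NT libraries and 744, 632 and 1137 in the 34a libraries. The model is a cell line in culture, sorted into fractions, and not the cell layers of a gland.

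The mammary duct has an inner layer of luminal cells, which carry the simple keratins Krt8 and Krt18, EpCAM, E-cadherin and tight junctions, and an outer layer of basal or myoepithelial cells, which carry Krt5, Krt14, p63 and a smooth muscle contractile apparatus and rest on the basement membrane. Sca-1, encoded by Ly6a, is a small lipid-anchored surface protein of the Ly6 family that is used to sort progenitor-rich fractions in several mouse tissues. In many epithelia the ZEB, SNAIL and TWIST transcription factors repress E-cadherin and junction genes through E-boxes, while microRNAs of the miR-200 family repress Zeb1 and Zeb2, and miR-205 is a microRNA of basal and squamous epithelia.

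Reads at the precursor loci of miR-429 and miR-200a, of the miR-200 family, were called lower in Sca-high cells, and those at the miR-205 locus were called higher. The mature sequences below are those of RefSeq (GRCm38.p6), shown for miR-200 loci and the miR-205 locus, which were among the precursors that separated the groups. Capitals mark the seed, bases 2 to 8.
mmu-miR-429-3p: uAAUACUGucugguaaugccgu
mmu-miR-200b-3p: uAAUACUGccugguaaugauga
mmu-miR-200a-3p: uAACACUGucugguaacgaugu
mmu-miR-205-5p: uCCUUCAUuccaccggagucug
miR-429 and miR-200b share a seed, and that of miR-200a differs from it. Their 3 mature sequences lie together on the minus strand of chromosome 4, at chr4:156053916-156053937 for miR-429, chr4:156054911-156054932 for miR-200a and chr4:156055685-156055706 for miR-200b, and miR-205 lies at chr1:193507503-193507524 on the minus strand. Mature microRNAs are too short for these libraries, so the values are reads of longer transcripts over the precursor entries, not levels of the microRNAs. The Mir429 entry had 0, 0 and 1 reads in Sca-high libraries 1, 2 and 3 and 19, 13 and 19 reads in Sca-low libraries 4, 5 and 6. Mir200a had 0, 2 and 0 reads against 14, 10 and 22. Mir200b had 0, 0 and 0 reads against 3, 4 and 6, too few to be tested. The remaining family members had almost none, Mir200c with 0, 0 and 0 against 1, 1 and 1 and Mir141 with 0, 0 and 1 against 0, 0 and 1, and neither was tested. The Mir429, Mir200a and Mir200b entries had their higher reads in Sca-low cells, with no overlap, and Mir429 (log2 change -4.32 ± 0.3 SE, limma adjusted p = 1.4e-07) and Mir200a (-3.79 ± 0.51, adjusted p = 4.3e-05) were called, while their few reads leave the size of the change uncertain. Mir429 and Mir200a passed the filter on low genes through the Sca-low libraries alone. Their direction and lack of overlap were thus set by that filter, and their p-values add no support to them. Mir205 had 4302, 3907 and 4377 reads in Sca-high cells against 399, 279 and 256 in Sca-low cells, and was higher in every Sca-high library (3.69 ± 0.15, adjusted p = 8.4e-10). Its entry is 21 times as long as that of Mir429, so its reads cover more than a hairpin. Mir31 was higher in Sca-high cells by less, with 139, 153 and 115 reads against 73, 93 and 79 (0.7 ± 0.13, adjusted p = 0.00048). Mir34a, the microRNA that the vector of the other libraries expresses, had 0, 0 and 3 reads against 0, 4 and 1. It passed the filter through the induced libraries alone, so that these few reads could show no difference. Over the 525 microRNA precursor entries of the table, 78 were tested, of which 14 were higher and 8 lower, and the 447 others were too low. The 28.2% called is below the 40.4% of all tested genes.

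All levels below are RPKM (reads scaled by gene length and library size) after scaling the libraries to each other, written for libraries 1, 2 and 3 (Sca-high) and then 4, 5 and 6 (Sca-low). Means are given ± SD with n = 3. A log2 change is Sca-high minus Sca-low on log2(RPKM + 0.1), given ± SE, and a gene was called, or said to be higher or lower, at a limma adjusted p (Benjamini-Hochberg over 10586 tested genes) below 0.01 with a log2 change beyond 0.5. Recovered whole reads were 33668289 to 39814864 per Sca-high library and 35415610 to 38895033 per Sca-low library. Library 3 stood apart from the other Sca-high libraries. Its root mean square log2 difference was 0.348 from library 1 and 0.283 from library 2, against 0.209 between those and 0.177 to 0.213 among Sca-low libraries, while pairs across the groups differed by 0.995 to 1.14. By another measure libraries 1 and 2 were the odd ones. Reads at genes without a symbol made up 0.094% and 0.092% in them, against 0.05% to 0.066% in all other libraries of the study. The sort marker Ly6a (Entrez gene 110454) was at 9.93, 10.8 and 13.4 RPKM against 1.88, 0.995 and 1.08 RPKM, which puts the Sca-high libraries above the Sca-low libraries as labelled. Among markers of other cells, the summed level of 5 fibroblast genes was 0.499 to 0.947 RPKM in Sca-high and 0.107 to 0.122 RPKM in Sca-low libraries with none of the 5 high enough to test, 4 endothelial markers summed to at most 0.112 RPKM, 3 adipocyte markers to at most 0.0266 RPKM, and 2 erythroid markers were at 0 in all 6 libraries. Of 6 leukocyte markers, Cd68 alone was tested and it was not called (log2 change 0.35, adjusted p = 0.038). The part of such cells in the results was not tested. The labels do not name separate cultures for the libraries of a group, and p-values then reflect the spread within groups of these libraries, estimated over all 12, which may be technical.

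Between the groups 4272 genes were called, 40.4% of those tested, and of these Sca-high cells had 2111 (19.9%) at a higher and 2161 (20.4%) at a lower level. The libraries of the groups did not overlap for 7488 genes (70.7%), so a call or a lack of overlap is the background here and the size of a change says more than its test. The middle 50% of tested genes had log2 changes from -0.41 to 0.43 around a median of -0.0036. A change beyond 3 with a call was found for 339 genes (3.2%), of which 125 (1.18%) were higher and 214 (2.02%) lower.

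The genes named for the largest rises, with at least 5 RPKM in the higher group, were Mgll, Tgfbi, Aff3, Lrp1, Ccnd2, Antxr1, Sulf1, Myl9, Cxcl12, Dkk3, Acta2, Krt5, Mxra8, Maf and Dsc3. Mgll, the lipase that splits monoacylglycerols, was at 13.4, 14.7 and 15.5 RPKM against 0.447, 0.418 and 0.386 RPKM, 34.9 times as high by the means (4.82 ± 0.11, adjusted p = 1.7e-11). Tgfbi, a secreted matrix protein induced by TGF-β, was at 73, 63 and 54.8 against 3.35, 2.81 and 3 RPKM, 20.8 times as high. The receptor gene Lrp1 was at 25.7, 21.8 and 10.2 against 1.65, 0.787 and 0.596 RPKM, with library 3 at the low end of the Sca-high range (4.13 ± 0.41, adjusted p = 3e-06). The largest falls were those of Wfdc18, Wfdc2, Krt7, Krt18, Kcnk1, Krt8, Cldn3, Epcam, Tmem98, Spint1, Esyt3, Cited4, Slc25a48, Cdcp1 and Tmem54. Wfdc18, a small secreted protein of the whey acidic protein family, was at 0.172, 0.127 and 0.142 against 41.6, 37.8 and 46.9 RPKM, 287 times lower in Sca-high cells by the means (-7.42 ± 0.18, adjusted p = 2.1e-11). Kcnk1, a potassium channel, was at 0.473, 0.407 and 0.48 against 26.4, 26.3 and 29.3 RPKM (60.3 times lower), and Spint1, an inhibitor of the epithelial protease matriptase, at 0.41, 0.341 and 0.549 against 20.5, 19.2 and 21.6 RPKM (47.2 times lower). None of these 30 genes overlapped between the groups, which the rule that named them required.

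In bulk RNA, a few cells with a full level and many cells with a low level cannot be told apart, here and for every gene below.

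**Figure D1:**
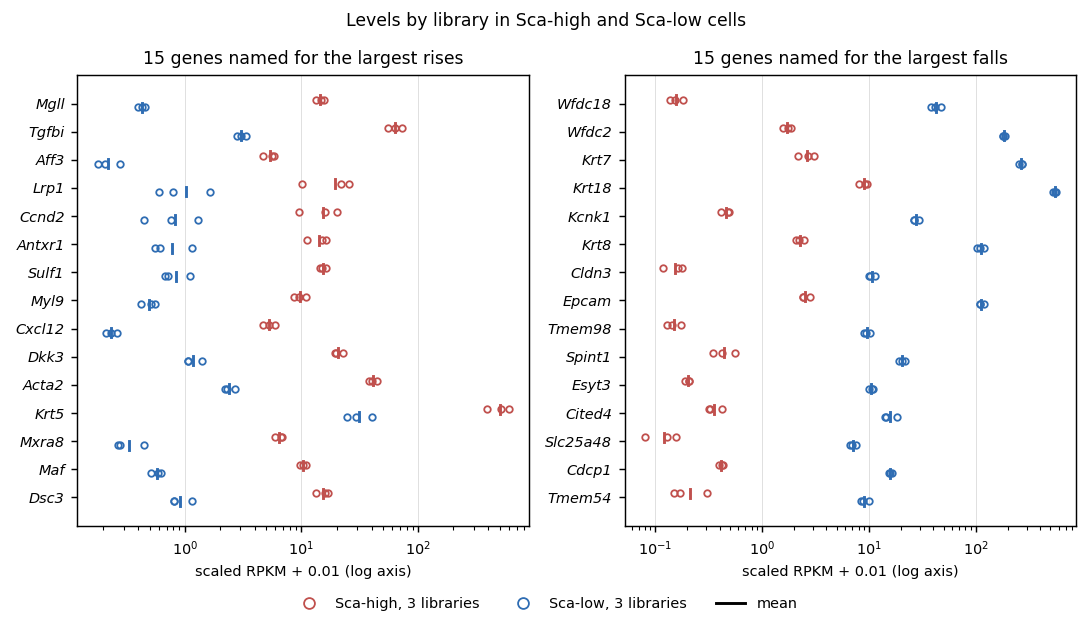
Scaled RPKM plus 0.01 (log axis) of the 15 genes named for the largest rises (left) and the 15 named for the largest falls (right) in each of 3 Sca-high (red) and 3 Sca-low (blue) libraries, with bars at the group means. No gene overlaps between the groups, the gap of the means reaches 287 times for Wfdc18, and Lrp1 and Ccnd2 have the Sca-high library 3 well below the others (10.2 and 9.47 RPKM).

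Most gene lists split, with some members higher and others lower. Among the lists with calls, no tested member was higher in the claudins, simple keratins and epithelial splicing regulators, and none was lower in the aldehyde dehydrogenases, glycolysis and hypoxia genes, Hox genes, basal lineage transcription factors and the netrin, Slit and Robo genes.

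**Figure D2:**
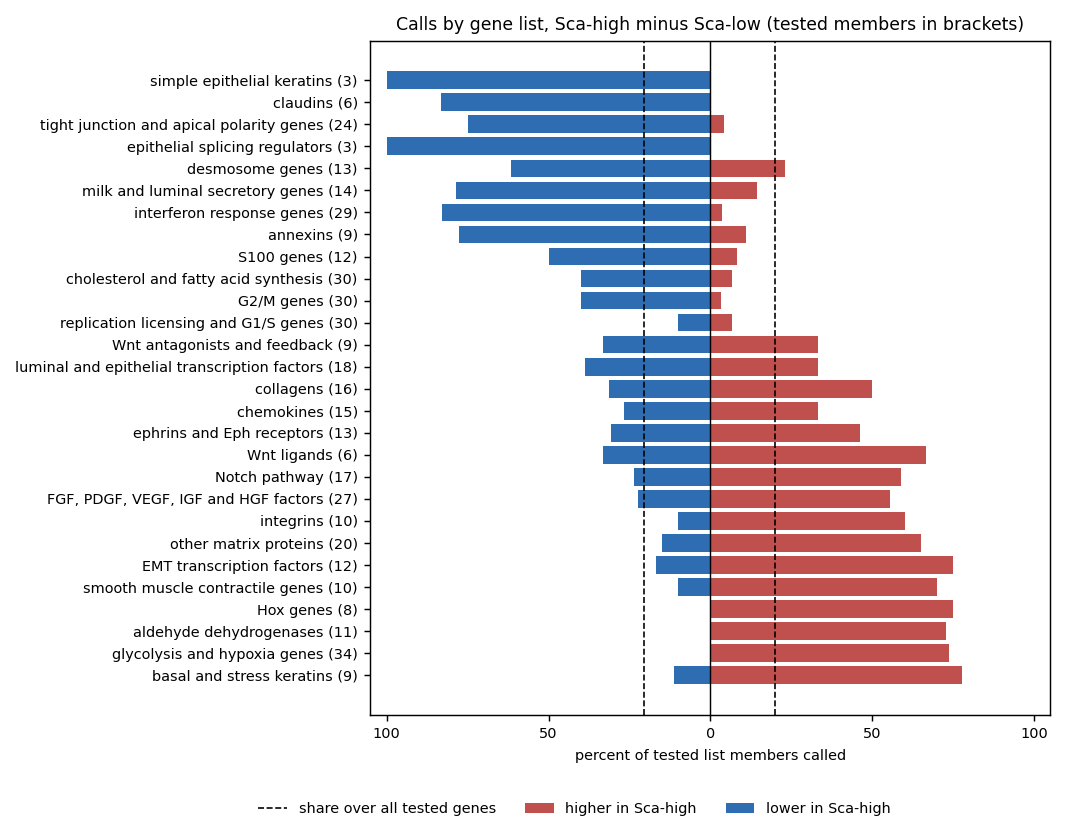
Percent of the tested members of 28 gene lists called higher (red, right) or lower (blue, left) in Sca-high cells, with the number tested in brackets and dashed lines at the shares over all tested genes, 19.9% higher and 20.4% lower. All 3 simple keratins and all 3 splicing regulators were lower, and blue bars also dominate claudins, tight junction and interferon response genes.

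The keratins divided by kind. The simple keratins, which form the filaments of luminal cells, were far lower in Sca-high cells. Krt18 was at 9.1, 8.04 and 9.6 RPKM against 549, 533 and 563 RPKM, and Krt7 was at 2.67, 2.18 and 3.02 against 256, 269 and 271 RPKM (-6.62 ± 0.12, adjusted p = 4.9e-12). Krt8, the partner of Krt18, was at 2.08, 2.19 and 2.46 against 111, 104 and 119 RPKM. These 3 were the tested simple keratins, all of them lower with a median log2 change of -5.93 and no overlap, and the luminal keratin Krt19 was too low to test (0.0549 against 0.342 RPKM). Of 9 tested basal and stress keratins, 7 were higher, Krt80 was lower and Krt17 was not called, with a median of 0.87. Krt5 was at 598, 392 and 514 against 40.3, 29.5 and 24.6 RPKM, while Krt14, its partner in basal cells, was at 797, 817 and 999 against 353, 291 and 342 RPKM (1.4 ± 0.13, adjusted p = 2.2e-06). Sca-low cells held Krt14 at 329 ± 32.8 RPKM beside Krt8 and Krt18, and the Sca-high means were 16 times (Krt5) and 2.65 times (Krt14) the Sca-low means. Krt15, a keratin of basal progenitor cells in skin, was at 5.67, 5.37 and 7.8 against 0.465, 0.433 and 0.695 RPKM (3.34 ± 0.21, adjusted p = 4.5e-08). Krt6a (64.3, 65.4 and 81.8 against 44, 32.1 and 39.7 RPKM) and Krt16 (7.92, 6.82 and 8.58 against 4.97, 3.59 and 4.19 RPKM), keratins of stressed epidermis, were higher, and Krt17 was at 54.2, 51.2 and 47.2 against 77.1, 51.4 and 64.9 RPKM with overlap. Krt6a, Krt6b, Krt16 and Krt17 are close in sequence, so their reads may be shared, and Krt6b lost its call under 8 other settings.

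Tight junction genes were lower in Sca-high cells. Among 25 claudins listed, 6 were tested, of which 5 were lower and none higher (median -4.2). Cldn3 was at 0.167, 0.109 and 0.153 against 10.1, 10.3 and 11.3 RPKM, and Cldn4 at 0.207, 0.152 and 0.334 against 8.13, 8.3 and 9.92 RPKM, both claudins of sealing epithelia. Cldn7 was at 0.298, 0.37 and 0.327 against 11.4, 13 and 12.4 RPKM. Cldn12 changed least of those called (11.2 ± 1.13 against 16.9 ± 0.181 RPKM) and Cldn25 was not called. Of 24 tested tight junction and apical polarity genes 18 were lower and Pard3 alone was higher (median -2.41). Where 1 RPKM or more was required in every one of the 6 libraries, 1 claudin and 6 of these genes were lower. That filter removes genes off in 1 group. The filter used for testing in turn passed genes such as Cldn3 through the Sca-low libraries alone, so these could only come out lower. Cldn3 was at a mean of 0.0818 RPKM in Sca-high NT and 0.11 RPKM in Sca-high 34a cells. Ocln, the junction protein occludin, was at 0.158, 0.186 and 0.181 against 8.14, 8.03 and 8.53 RPKM (-4.92 ± 0.1, adjusted p = 6.1e-12), Crb3, which builds the apical Crumbs complex, at 0.089, 0.105 and 0.185 against 4.86, 4.62 and 5.41 RPKM, and Myo5b, a motor of apical vesicles, at 0.118, 0.127 and 0.127 against 5.67, 5.85 and 5.95 RPKM. Pard3, a scaffold of the PAR polarity complex, was at 10.3, 8.98 and 7.68 against 3.76, 4.22 and 3.65 RPKM (1.18 ± 0.16, adjusted p = 3.9e-05), while the junction scaffold Tjp1 and the kinase Prkci were not called. The epithelial splicing regulators, which set epithelial isoforms of many transcripts, were all 3 lower, with Esrp1 at 0.296, 0.299 and 0.288 against 10.5, 11.9 and 10.9 RPKM, Rbm47 at 0.11 ± 0.0102 against 1.25 ± 0.202 RPKM, and Esrp2 at 1.52 ± 0.16 against 4.24 ± 0.4 RPKM.

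The promoters of 3 lower genes are shown, chosen because all 3 hold the E-box that ZEB and SNAIL factors bind. They are RefSeq promoters of GRCm38.p6, from 250 bases before to 50 after the annotated start, 5′ to 3′, with each match to CAGGTG on either strand (CACCTG on the other) in capitals.
Crb3 (chr17:57061951-57062250, plus strand): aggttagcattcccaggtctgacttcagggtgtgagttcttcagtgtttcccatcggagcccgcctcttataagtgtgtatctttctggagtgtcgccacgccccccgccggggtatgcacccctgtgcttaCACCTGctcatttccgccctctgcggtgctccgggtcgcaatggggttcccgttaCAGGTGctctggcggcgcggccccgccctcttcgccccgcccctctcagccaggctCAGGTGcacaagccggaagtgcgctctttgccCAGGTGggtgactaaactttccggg
Epcam (chr17:87635729-87636028, plus strand): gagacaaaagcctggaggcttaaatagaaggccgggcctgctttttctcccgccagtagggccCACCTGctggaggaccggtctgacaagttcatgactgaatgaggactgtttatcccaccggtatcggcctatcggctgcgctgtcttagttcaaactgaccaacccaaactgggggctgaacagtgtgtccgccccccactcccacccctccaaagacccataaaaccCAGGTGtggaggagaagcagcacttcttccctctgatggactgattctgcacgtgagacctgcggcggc
Cldn4 (chr5:134946885-134947184, minus strand): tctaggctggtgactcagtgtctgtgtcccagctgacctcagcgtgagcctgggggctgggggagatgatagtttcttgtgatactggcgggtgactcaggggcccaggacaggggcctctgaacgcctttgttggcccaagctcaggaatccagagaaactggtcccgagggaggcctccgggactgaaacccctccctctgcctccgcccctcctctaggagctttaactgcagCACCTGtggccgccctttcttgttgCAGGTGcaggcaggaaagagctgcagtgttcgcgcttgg
The motif was found 4 times in the Crb3 window and 2 times each in those of Epcam and Cldn4. Of 8412 tested genes with a promoter in that table, 1645 (19.6%) held at least 1 match. Of 28 genes lower in Sca-high cells among claudins, tight junction genes, splicing regulators, Cdh1 and Epcam, 19 were in the table and 14 of these held a match, but as under 80% of the set had a promoter there, no share is drawn from it. A match is a run of letters, binding was not measured, and a role of these factors was not tested.

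The cadherins divided as well. E-cadherin (Cdh1), which joins luminal cells, was at 0.669, 0.501 and 0.377 RPKM against 15.8, 19 and 15.4 RPKM, and N-cadherin (Cdh2), the cadherin of mesenchymal and neural cells, was lower as well, at 0.608, 0.537 and 0.504 against 7.95, 8.63 and 7.69 RPKM. P-cadherin (Cdh3), the cadherin of basal mammary cells, was at 26.2, 22 and 21.2 against 3.46, 2.56 and 2.38 RPKM (3.01 ± 0.18, adjusted p = 3.6e-08). The giant cadherins Fat1 (84.9, 83.5 and 58.3 against 21.9, 21.8 and 15.8 RPKM) and Fat2 (26.4, 27.1 and 21.7 against 2.42, 1.38 and 1.28 RPKM) were higher, Cdh13 and Celsr1 were not called, and Fat4 was lower at low levels (0.319 against 0.637 RPKM). The 8 tested cadherins thus gave 3 higher and 3 lower members. Pvrl1, which encodes nectin-1, was at 24.2, 20.7 and 13.7 against 2.37, 1.92 and 1.83 RPKM (3.17 ± 0.19, adjusted p = 3.5e-08), and p120-catenin (Ctnnd1), which stabilises cadherins, was lower (27.1 ± 1.79 against 58 ± 2.97 RPKM).

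Desmosomes, the junctions that anchor keratins, showed a like exchange. Desmocollin-3 (Dsc3), a basal isoform in skin, was at 13.3, 16.1 and 17 against 1.14, 0.795 and 0.798 RPKM (3.95 ± 0.14, adjusted p = 3.6e-10). Desmocollin-2 (Dsc2) and desmoglein-2 (Dsg2), isoforms of simple epithelia, were at 0.167, 0.133 and 0.198 against 4.28, 4.29 and 3.87 RPKM and at 0.447, 0.33 and 0.22 against 3.2, 3.92 and 2.7 RPKM. No library of either group overlapped for these 3 genes, as for 70.7% of all tested genes. The linkers Ppl (0.565 ± 0.0912 against 6.77 ± 0.632 RPKM) and Evpl (0.347 ± 0.0672 against 4.06 ± 0.447 RPKM) were lower, and desmoplakin (Dsp, 31.2 ± 4.29 against 15.9 ± 0.734 RPKM) and Pkp1 (69.8 ± 2.64 against 45.8 ± 1.02 RPKM) were higher. Of 13 tested members 3 were higher and 8 lower (median -1.16). Among gap junction proteins, connexin 43 (Gja1), the connexin of myoepithelial cells, was at 52.4, 40 and 39.1 against 12.9, 15.7 and 10.4 RPKM (1.75 ± 0.25, adjusted p = 6.6e-05).

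**Figure D3:**
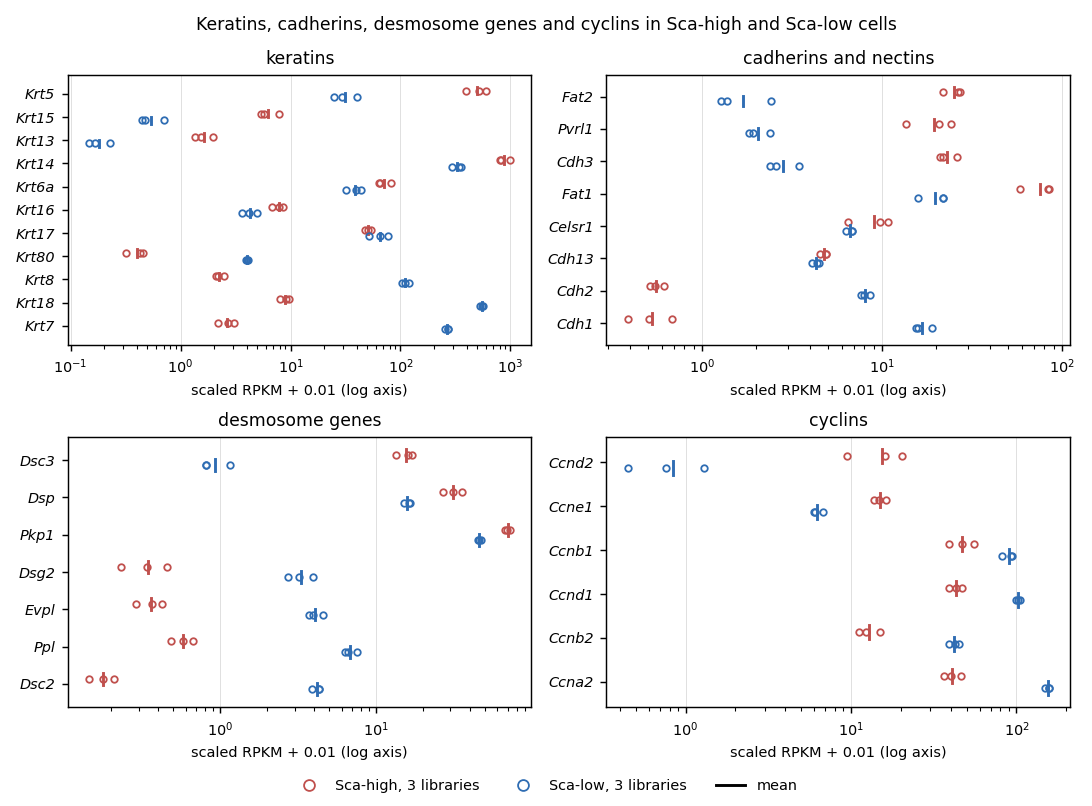
Scaled RPKM plus 0.01 (log axis) of keratins, cadherins with the nectin Pvrl1, desmosome genes and cyclins in 3 Sca-high (red) and 3 Sca-low (blue) libraries, with bars at the group means. In each family some members lie higher in red and others in blue, such as Dsc3 (15.5 against 0.91 RPKM) and Dsc2 (0.166 against 4.15 RPKM).

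Transcription factors of the epithelial to mesenchymal transition (EMT) were mostly higher in Sca-high cells, 9 of 12 tested with a median of 0.98. With 1 RPKM or more required in every one of the 6 libraries, 3 were higher. Zeb2 was at 2.06, 2.16 and 2.05 RPKM against 0.776, 0.774 and 0.736 RPKM (1.34 ± 0.07, adjusted p = 9.5e-09), and Zeb1 at 3.96, 3.71 and 3.65 against 0.75, 0.761 and 0.581 RPKM. Slug (Snai2), a factor of basal mammary cells, was at 5.32, 4.95 and 2.92 against 0.748, 0.549 and 0.396 RPKM, and Foxc2 at 2.98, 2.01 and 1.87 against 0.243, 0.109 and 0.118 RPKM. Snai1 was higher too (2.6 ± 0.709 against 1.29 ± 0.0891 RPKM), but not without library 1 (adjusted p = 0.015) or library 5 (adjusted p = 0.014). Twist1, in contrast to Twist2, overlapped and was not called (8.15 ± 0.85 against 8.67 ± 0.423 RPKM), and Sox4 (15.2 ± 1.46 against 29.1 ± 0.634 RPKM) and Foxc1 (2.73 ± 0.0727 against 6.65 ± 0.753 RPKM) were lower. Among basal factors Trp63, the master regulator of stratified and basal epithelium, was at 19, 18.9 and 17 against 1.52, 1.02 and 0.865 RPKM. Its relative Trp73 was at 2.87, 2.66 and 1.82 against 0.143, 0.0955 and 0.0724 RPKM (3.64 ± 0.18, adjusted p = 4.8e-09), and Id4, which holds basal cells undifferentiated, was not called (15.5 ± 1.52 against 15.2 ± 1.73 RPKM).

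Luminal and epithelial transcription factors did not move as a set, with 6 higher and 7 lower of 18 tested (median -0.06). The lower members with the largest changes maintain epithelial identity. Ehf, an ETS factor of simple epithelia, was at 0.155, 0.198 and 0.239 against 8.23, 8.64 and 10.1 RPKM, and Grhl2, an activator of E-cadherin and claudin genes, at 0.321, 0.274 and 0.319 against 10.01, 10.2 and 10 RPKM (-4.65 ± 0.08, adjusted p = 2.6e-12). Ovol2, a repressor of Zeb1, was at 0.0539, 0.0635 and 0.074 against 2.49, 2.46 and 2.47 RPKM. Gata3, the factor of luminal commitment, lay on the other side, at 6.9, 4.81 and 3.48 RPKM against 2, 2.36 and 1.84 RPKM (1.21 ± 0.27, adjusted p = 0.0019), with no overlap. Bcl11b, known from quiescent basal mammary cells, was at 2.03, 1.63 and 1.48 against 0.162, 0.152 and 0.13 RPKM, and Grhl3, a factor of barrier epithelia, at 1.14, 1.15 and 1.3 against 0.263, 0.236 and 0.398 RPKM. Klf5 and Tfap2a were also higher and Sox9 lower, but each lost its call without any of 2 to 4 libraries taken out in turn (adjusted p up to 0.025). The factors of the alveolar and hormone-sensing luminal lineages were too low to test in these cells, among them Elf5 (0.172 against 0.196 RPKM) and Esr1 (0.375 against 0.0922 RPKM).

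Secreted luminal products were lower in Sca-high cells, without milk proteins. Of 14 tested milk and luminal secretory genes 11 were lower and 2 higher (median -2.35), and the 17 untested members included all caseins of the list, Wap, Lalba and Muc1 (0.106 against 0.0998 RPKM). Wfdc2 was at 1.57, 1.73 and 1.85 RPKM against 182, 189 and 180 RPKM (107 times lower by the means), and Lcn2, an iron-binding protein of stressed luminal cells, at 0.0961, 0.0646 and 0.0904 against 3.24, 3.79 and 4.35 RPKM. Amphiregulin (Areg), the EGF-family ligand of ductal growth, was at 8.05, 7.06 and 7.24 against 37.8, 38.1 and 41.7 RPKM. The 2 that were higher, Mfge8 (61.2 ± 4.14 against 21.8 ± 0.789 RPKM) and Xdh (15.1 ± 1.8 against 2.49 ± 0.67 RPKM), encode proteins of the milk fat globule membrane. The water channels parted, with Aqp5, a channel of secretory cells, at 1.3, 1.31 and 1.94 against 17.9, 17.7 and 21.2 RPKM and Aqp3, a channel of basal epidermal cells, at 39.3, 30.1 and 38.1 against 4.45, 3.19 and 3.72 RPKM (3.21 ± 0.14, adjusted p = 1.9e-09).

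The genes by which mammary cells are sorted followed no common direction, 6 higher and 5 lower of 14 tested. The 6 higher include Ly6a, the gene of the sort marker, so its rise is no separate result. CD24 (Cd24a) was at 39.5, 43.8 and 50.7 RPKM against 181, 175 and 196 RPKM, and CD44 was lower as well, at 46.6, 46.3 and 41.7 against 68, 73.6 and 68.8 RPKM (-0.65 ± 0.07, adjusted p = 7.8e-06). The integrins CD49f (Itga6, 32.6 ± 0.669 against 21.7 ± 0.442 RPKM) and CD29 (Itgb1, 140 ± 7 against 90.2 ± 5.69 RPKM) were higher by less than 2 times. Procr, the protein C receptor of a basal stem-like fraction, was at 6.68, 5.8 and 6.72 against 4.27, 2.34 and 2.91 RPKM, and CD200, which marks basal cells, at 34.5, 33.1 and 31.8 against 11.1, 11.8 and 10.9 RPKM. Lgr6, an R-spondin receptor, was at 3.81, 3.51 and 3.14 against 0.324, 0.335 and 0.348 RPKM while its relative Lgr4 was lower (4.75 ± 0.243 against 10.6 ± 0.72 RPKM). The sort gene was not the only member of its family to differ. Ly6e was at 45.3, 41.5 and 43.8 against 6.89, 5.82 and 6.49 RPKM (2.75 ± 0.07, adjusted p = 3.2e-11), at a higher level than Ly6a in RPKM, and Lynx1 (3.58 ± 0.638 against 0.416 ± 0.0784 RPKM) and Slurp1 (1.77 ± 0.213 against 0.291 ± 0.0672 RPKM) were higher. Lypd3 was at 0.719, 0.719 and 0.876 against 19.2, 18.1 and 19.5 RPKM (-4.45 ± 0.14, adjusted p = 1e-10), and the urokinase receptor Plaur was lower too, which leaves 4 higher and 2 lower of 6 tested. The 4 higher include Ly6a, whose product the cells were sorted on.

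The contractile genes of myoepithelium were higher in Sca-high cells in part. Smooth muscle actin (Acta2) was at 40.1, 37.8 and 44.4 RPKM against 2.67, 2.21 and 2.28 RPKM (4.04 ± 0.1, adjusted p = 2.7e-11), and the myosin light chain Myl9 at 9.58, 8.57 and 10.9 against 0.51, 0.412 and 0.546 RPKM. Caldesmon (Cald1) was at 122, 112 and 127 against 24.3, 24.2 and 22.5 RPKM. Of 10 tested genes 7 were higher (median 1.47), and Tpm1 was lower (52.7 ± 4.76 against 111 ± 6.22 RPKM) while Tpm2 was higher (45.4 ± 5.22 against 14.9 ± 0.642 RPKM). The markers of the mature contractile state were near 0 in both groups, with Cnn1 at 0.0724 and 0.0967 RPKM, Myh11 at 0.0361 and 0.0273 RPKM, and the oxytocin receptor Oxtr at 0.0376 and 0.0144 RPKM.

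Matrix genes differed in both directions, by group. Of 20 tested matrix proteins outside the collagens and laminins, 13 were higher and 3 lower (median 1.56). Sparc, a collagen-binding matrix protein, was at 90.4, 70.6 and 76.2 RPKM against 17.4, 14 and 13.9 RPKM, and tenascin-C (Tnc) at 34.7, 34.6 and 31.4 against 8.69, 6.69 and 6.12 RPKM. The lysyl oxidase Loxl4 went the other way, at 0.472, 0.456 and 0.317 against 8.87, 9.26 and 9.56 RPKM (-4.19 ± 0.12, adjusted p = 7.4e-11). Fibronectin (Fn1) was at 51.4, 46.1 and 24.9 against 25.9, 29.9 and 20.5 RPKM, overlapped and was not called, though it was without library 3 (0.95, adjusted p = 0.0026). Among 16 tested proteoglycan and hyaluronan genes 4 were higher and 5 lower (median 0.06), which is 56.25% called beside 40.4% of all tested genes. Among 14 tested matrix metalloproteinases and their inhibitors 5 were higher and 1 lower (median 0.58), and the 42.9% called is close to that share. Among 16 tested collagens 8 were higher and 5 lower. The collagen V chains Col5a2 (28.4, 30.3 and 33 against 3.42, 2.36 and 2.57 RPKM) and Col5a1 (9.12, 8.75 and 6.91 against 1.09, 0.74 and 0.724 RPKM) were higher, and Col11a1, a related fibril chain, was at 0.0964, 0.0967 and 0.101 against 4.64, 5.66 and 5.96 RPKM. The fibroblast collagens Col1a1 (0.472 against 0.0169 RPKM) and Col3a1 (0.116 against 0.0879 RPKM) were too low to test.

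The attachment to the basement membrane changed by component. Collagen XVII (Col17a1), a hemidesmosome protein, was at 156, 144 and 146 RPKM against 20.3, 13 and 14.6 RPKM (3.23 ± 0.15, adjusted p = 2.8e-09), and dystonin (Dst), which ties it to keratin, at 28.1, 26.7 and 20.5 against 3.5, 3.36 and 2.51 RPKM. Laminin chains of the basement membrane did not follow. Lama3 was at 3.2, 3.02 and 2.72 against 11.4, 10.6 and 11 RPKM and was lower, while Lamb3 was not called (29 ± 1.42 against 33.8 ± 2.21 RPKM). Itgb4, the hemidesmosomal integrin chain, was not called either (23.1 ± 5.68 against 15.5 ± 0.834 RPKM). Of 10 tested integrins 6 were higher and Itgb8 was lower (1.07 ± 0.108 against 3.16 ± 0.1 RPKM). Itgb7, an integrin chain best known from lymphocytes, had the largest change among them, at 16.8, 17.3 and 20.1 against 1.67, 1.19 and 1.32 RPKM, in cells where the leukocyte gene Ptprc was at 0.0175 and 0.00874 RPKM. Among proteases and inhibitors Mmp2 (7.5 ± 0.373 against 0.789 ± 0.217 RPKM) was higher, and Timp3 (5.98 ± 0.172 against 25.6 ± 0.969 RPKM), urokinase (Plau, 11.5 ± 0.176 against 20.6 ± 0.502 RPKM) and its receptor were lower.

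Wnt ligands, the secreted signals that maintain mammary stem cells in mice, were exchanged. Wnt10a was at 39.4, 39.5 and 38.8 RPKM against 5.62, 3.95 and 4.61 RPKM (3.04 ± 0.1, adjusted p = 1.8e-10), Wnt4, the ligand of progesterone-driven branching, at 14.8, 14.1 and 15.3 against 1.22, 1 and 0.887 RPKM, and Wnt5a, a mainly non-canonical ligand, at 3.84, 3.26 and 2.96 against 0.421, 0.211 and 0.24 RPKM. Wnt9a was higher and Wnt7b lower, and Wnt7a was lower at low levels (0.151 ± 0.048 against 0.644 ± 0.0284 RPKM), which makes 4 higher and 2 lower of 6 tested with 13 others too low. Among the Frizzled receptors, Fzd1 (9.8 ± 0.133 against 7.63 ± 0.375 RPKM), Fzd7 (17.3 ± 0.728 against 19.7 ± 0.833 RPKM) and Fzd2 (4.04 ± 0.281 against 5.35 ± 0.454 RPKM) were not called and Fzd8 was lower (0.463 ± 0.0714 against 1.8 ± 0.0663 RPKM). The co-receptors Ptk7 (38.7 ± 1.09 against 18.1 ± 1.19 RPKM) and Ryk (12.4 ± 1.12 against 24.6 ± 0.337 RPKM) moved in opposite directions. Antagonists and feedback genes, of which 9 were tested, gave 3 higher and 3 lower. Nkd2, an inhibitor of Dishevelled, was at 1.59, 1.66 and 1.99 against 50.4, 47.2 and 55.7 RPKM (-4.8 ± 0.13, adjusted p = 3.2e-11), Notum, which strips the lipid from Wnt proteins, at 2.2, 2.39 and 2.88 against 29.95, 28.3 and 33.4 RPKM, and the decoy Sfrp1 at 0.603, 0.529 and 0.597 against 5.39, 6.15 and 5.78 RPKM. The Dickkopf-related Dkk3 was at 19.3, 19.9 and 22.9 against 1.39, 1.05 and 1.07 RPKM, and Kremen1 (3.68 ± 0.155 against 1.55 ± 0.108 RPKM) was higher. Axin2, a target and inhibitor of canonical signalling, was at 1.82, 1.68 and 1.4 against 0.627, 0.734 and 0.698 RPKM (1.14 ± 0.1, adjusted p = 1.5e-06), Lef1 was too low to test, and Tcf7 was not called.

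**Figure D4:**
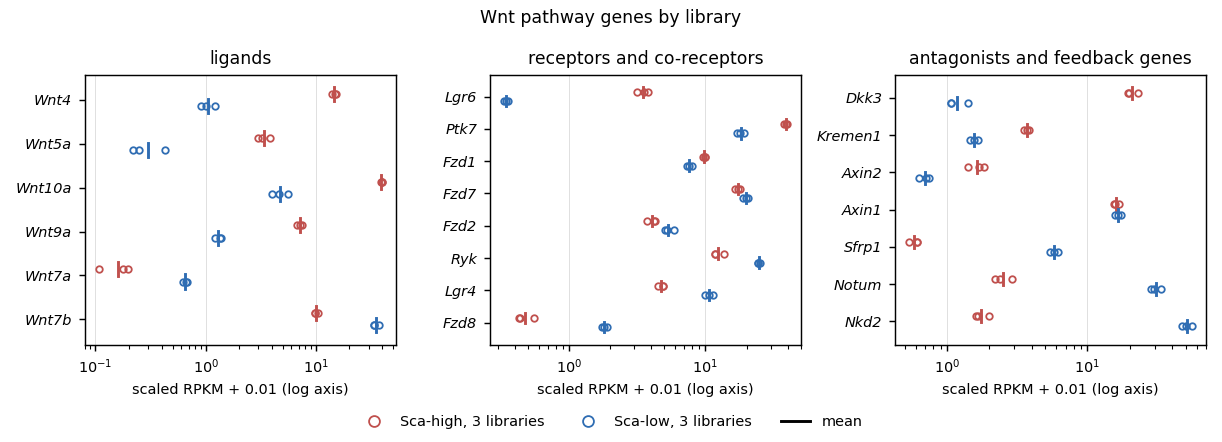
Scaled RPKM plus 0.01 (log axis) of Wnt ligands, receptors with co-receptors, and antagonists with feedback genes in 3 Sca-high (red) and 3 Sca-low (blue) libraries, with bars at the group means. The Frizzled genes Fzd1, Fzd7 and Fzd2 lie close together, while ligands and antagonists are far apart in both directions, such as Wnt4 (14.7 against 1.04 RPKM) and Nkd2 (1.75 against 51.1 RPKM).

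In the Notch pathway, which steers luminal commitment, 10 of 17 tested genes were higher and 4 lower (median 0.62). The ligand Jag1 was at 47.5, 45.7 and 36.4 RPKM against 6.82, 7.18 and 5.62 RPKM, and the coactivator Maml2 at 5.85, 5.81 and 3.83 against 0.865, 0.759 and 0.613 RPKM (2.62 ± 0.18, adjusted p = 1.1e-07). The target Hes1 was higher by less than 2 times (17.4 ± 0.562 against 11.6 ± 0.543 RPKM), the feedback gene Nrarp was lower, the target Hey1 was too low to test (0.0585 against 0.301 RPKM), and the fringe gene Rfng was lower (2.62 ± 0.348 against 7.68 ± 0.45 RPKM). The receptor Notch1 was at 6.32, 5.63 and 3.92 against 3.15, 3.22 and 2.96 RPKM with no overlap and missed the call (0.72 ± 0.21, adjusted p = 0.01), which it passed under 6 other settings.

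In the TGF-β pathway, an inducer of EMT, 9 of 21 tested genes were higher and 3 lower. Tgfb1 was at 9.92, 7.8 and 3.7 against 1.86, 1.58 and 1.33 RPKM, and the co-receptor Tgfbr3 at 5.51, 5.44 and 4.73 against 0.711, 0.368 and 0.375 RPKM (3.23 ± 0.19, adjusted p = 2.8e-08). The follistatin gene Fst, an activin antagonist, was at 0.457, 0.496 and 0.575 against 7.34, 7.42 and 7.59 RPKM while the follistatin-like Fstl1 was at 18.6, 20.5 and 21.2 against 2.63, 1.75 and 1.65 RPKM. The ID genes, targets of BMP signalling, were lower for Id1 (7.38 ± 0.956 against 18.2 ± 2.57 RPKM), Id2 (4.02 ± 0.47 against 7.14 ± 0.398 RPKM) and Id3 (6.94 ± 1.13 against 28.4 ± 3 RPKM), while Id4 was not called. Of 13 tested BMP ligands, antagonists and ID genes 2 were higher and 4 lower (median 0.02). The 46.2% called is close to the 40.4% of all tested genes.

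Growth factor receptors also changed partners. The FGF receptor Fgfr2 was at 6.06, 6.48 and 6.08 RPKM against 0.42, 0.294 and 0.337 RPKM (3.82 ± 0.1, adjusted p = 3.8e-11) and Fgfr1 at 20.3, 18 and 16.4 against 6.69, 6.78 and 6.94 RPKM. Erbb3, the receptor of neuregulins, was at 0.178, 0.168 and 0.144 against 5.07, 5.17 and 5.33 RPKM, whereas the neuregulin ligand Nrg1 was at 7.09, 7.75 and 6.07 against 1.76, 1.18 and 1.17 RPKM. Ligand and receptor of this pair thus lay highest in opposite fractions. Egfr was higher (8.73 ± 0.215 against 4.68 ± 0.269 RPKM), Erbb2 was not called (5.62 ± 0.924 against 6.1 ± 0.29 RPKM), and the EGFR ligand Hbegf was lower (3.32 ± 0.02 against 8.82 ± 0.309 RPKM) together with Areg. The IGF-binding proteins Igfbp4 (219, 180 and 202 against 16.3, 12.4 and 12.8 RPKM) and Igfbp6 (52.8, 57.5 and 66.4 against 5.26, 3.32 and 3.85 RPKM) were higher. Pdgfb was at 0.0423, 0.064 and 0.0531 against 2.9, 2.96 and 3.37 RPKM, and Pdgfa was not called (30.4 ± 1.25 against 25.8 ± 1.48 RPKM). Of 27 tested FGF, PDGF, VEGF, IGF and HGF factors 15 were higher and 6 lower (median 0.94).

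Interferon response genes, which cells switch on upon interferon or foreign nucleic acid, were lower in Sca-high cells, 24 of 29 tested against 1 higher (median -2.01). With 1 RPKM or more required in every one of the 6 libraries, 6 were lower, as that filter removes genes off in 1 group. Oasl1, an antiviral protein of the OAS family, was at 0.026, 0.00763 and 0.00356 RPKM against 4.13, 3.92 and 4.89 RPKM (-5.3 ± 0.11, adjusted p = 6.5e-12), Ifi44 at 0.0121, 0.0237 and 0.00884 against 2.89, 3.23 and 4.02 RPKM, and Ifit1, which binds foreign RNA, at 0.0222, 0.047 and 0.0195 against 2.8, 2.52 and 3.14 RPKM. The virus tether Bst2 was at 3.47, 3.04 and 2.32 against 9.78, 11.5 and 11.4 RPKM. Every Sca-low library lay above every Sca-high library for these 4 genes, and 70.7% of all tested genes had no overlap either. Irf1, a factor induced mainly by interferon gamma and inflammation, was higher, at 10.05, 10.5 and 11.6 against 5.18, 4.9 and 5.41 RPKM (1.04 ± 0.07, adjusted p = 1.6e-07). The class I presentation genes, many of them also interferon targets, did not follow, with 7 higher and 1 lower of 18 tested. The 44.4% called is close to the 40.4% of all tested genes. B2m was not called (41 ± 4.79 against 41.3 ± 2.27 RPKM), and the immunoproteasome subunit Psmb8 was at 4.11, 4.1 and 4.51 against 0.553, 0.395 and 0.441 RPKM. Members of the OAS and H2 families are close in sequence and may share reads.

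Promoters of 3 of the lower genes are shown because each holds a pair or more of copies of the motif that interferon-activated factors recognise, TTTC and TTTC with any 2 bases between (or GAAA likewise on the other strand), in capitals, in RefSeq windows of GRCm38.p6 as above. Isg15, a ubiquitin-like protein, was chosen after its values were seen (0.403, 0.273 and 0.289 against 3.34, 4.48 and 3.67 RPKM).
Isg15 (chr4:156200769-156201068, minus strand): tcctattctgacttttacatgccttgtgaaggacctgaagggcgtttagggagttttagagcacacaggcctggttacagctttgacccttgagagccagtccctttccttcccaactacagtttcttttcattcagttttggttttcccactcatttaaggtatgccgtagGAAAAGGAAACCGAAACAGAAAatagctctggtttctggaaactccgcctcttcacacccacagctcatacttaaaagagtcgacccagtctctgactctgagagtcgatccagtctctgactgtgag
Ifit1 (chr19:34640639-34640938, plus strand): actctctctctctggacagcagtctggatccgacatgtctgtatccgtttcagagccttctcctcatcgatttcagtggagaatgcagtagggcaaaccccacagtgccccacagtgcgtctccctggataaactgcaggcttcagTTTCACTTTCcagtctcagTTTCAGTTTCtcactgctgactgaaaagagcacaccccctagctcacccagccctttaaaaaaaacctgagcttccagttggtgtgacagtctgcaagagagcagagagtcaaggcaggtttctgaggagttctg
Bst2 (chr8:71537423-71537722, minus strand): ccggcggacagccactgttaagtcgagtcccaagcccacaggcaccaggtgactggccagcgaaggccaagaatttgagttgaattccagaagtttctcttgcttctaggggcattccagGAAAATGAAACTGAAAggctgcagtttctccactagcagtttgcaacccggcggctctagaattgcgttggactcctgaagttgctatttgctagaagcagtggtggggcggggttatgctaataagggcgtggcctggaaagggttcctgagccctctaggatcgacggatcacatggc
The windows hold 3, 2 and 2 overlapping or separate matches, counted on both strands. The motif was in 296 of the 8412 promoters of tested genes (3.52%). Of the 24 interferon response genes lower in Sca-high cells, 19 were in the table and 12 held it, again under 80% of the set, so the share is not read.

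Chemokines, attractants of immune and other cells, lay on both sides, with 5 higher, 4 lower and 6 not called of 15 tested (median 0.12). This is 60% called beside 40.4% of all tested genes. Ccl5 was at 0.0221, 0.00 and 0.0484 RPKM against 2.94, 2.99 and 2.78 RPKM, and Cxcl10, an interferon-induced chemokine, at 0.00, 0.0279 and 0.026 against 1.82, 1.68 and 2.33 RPKM. Cxcl12, the ligand of CXCR4, was at 5.93, 5.27 and 4.67 against 0.252, 0.222 and 0.201 RPKM (4.05 ± 0.14, adjusted p = 2.1e-10), Cx3cl1 at 18.1, 15.8 and 15.9 against 2.46, 2.23 and 2.56 RPKM, and Ccl7 at 3.17, 3.85 and 4.73 against 0.518, 0.171 and 0.257 RPKM. The neutrophil attractants Cxcl1 (21 ± 1.95 against 25.2 ± 6.04 RPKM) and Cxcl5 (17.4 ± 0.87 against 13.5 ± 3.47 RPKM) overlapped and were not called. Of 26 tested interleukins and receptors 13 were higher and 7 lower, among them Il18 (2.5 ± 0.359 against 0.324 ± 0.0366 RPKM) and Il24 (1.53 ± 0.083 against 17.4 ± 0.794 RPKM). Osteoprotegerin (Tnfrsf11b), a decoy of RANKL, was at 0.125, 0.117 and 0.1 against 4.67, 4.84 and 5.34 RPKM (-4.56 ± 0.1, adjusted p = 1.2e-11).

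Glycolysis and hypoxia genes were higher in Sca-high cells, 25 of 34 tested with none lower (median 0.97). The oxygen-dependent hydroxylase Egln3, a target of HIF, was at 14.7, 14.3 and 13.2 RPKM against 1.14, 0.727 and 0.711 RPKM (3.91 ± 0.14, adjusted p = 2.7e-10). Carbonic anhydrase Car12 was at 36.2, 39.3 and 39.8 against 5.06, 3.98 and 4.36 RPKM and Ddit4, an inhibitor of mTORC1 under stress, at 24.6, 16.6 and 20.1 against 2.78, 2.87 and 2.5 RPKM. The glycolytic enzymes changed less, as hexokinase Hk2 was at 6.26 ± 0.786 against 3.8 ± 0.0853 RPKM and Ldha at 384 ± 43.8 against 262 ± 11.6 RPKM, the latter with a log2 change of 0.54 that fell to 0.46 and lost the call without library 3. Pkm, Pgk1, Aldoa and Tpi1 were not called, and the hypoxia marker Car9 was too low to test (0.427 against 0.239 RPKM).

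Aldehyde dehydrogenases, whose activity is used to sort progenitors, were higher for 8 of 11 tested genes and lower for none (median 0.8). Aldh3a1 was at 34.5, 39.2 and 46.8 RPKM against 4.11, 2.94 and 4.18 RPKM (3.4 ± 0.17, adjusted p = 5.7e-09), and Aldh1l2, a mitochondrial enzyme of folate metabolism, at 10.2, 9.92 and 10.6 against 1.6, 1.48 and 1.4 RPKM. Aldh1a1 and Aldh1a3, the members most tied to the sorting assay, were too low to test, Aldh1a3 at 0.0226 and 0.0711 RPKM. Detoxification genes split, with 14 of 35 tested NRF2 and glutathione genes higher and 9 lower. Gsta4 was higher (81.6 ± 14.1 against 28.5 ± 3.47 RPKM), as were Gstm1 and Gstm2, which share sequence, and the gut-type peroxidase Gpx2 was at 1.09, 0.994 and 1.04 against 13.5, 14.2 and 18.3 RPKM. In cholesterol and fatty acid synthesis 12 of 30 tested genes were lower and 2 higher (median -0.38). The 46.7% called is close to the 40.4% of all tested genes, with most calls on the lower side. Fatty acid synthase (Fasn) was at 39.9, 34.3 and 26.1 against 101, 111 and 111 RPKM (-1.7 ± 0.22, adjusted p = 2.9e-05) and Insig1, a sterol sensor, at 3.64, 3.7 and 3.87 against 11.7, 11.2 and 12.4 RPKM, while the desaturases Fads1 (31.4 ± 1.9 against 12 ± 1.31 RPKM) and Fads2 (12 ± 1.48 against 6 ± 0.291 RPKM) were the 2 that were higher.

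Cell cycle genes were mostly not called. Of 30 genes of replication licensing and G1/S, 2 were higher and 3 lower (median -0.04), which is 16.7% called beside 40.4% of all tested genes. Of 30 G2/M genes, 12 were lower and Mad2l1 alone was higher (median -0.46). The 43.3% called is close to the share over all tested genes, but the calls lay nearly all on the lower side. Over all tested genes 19.9% were higher and 20.4% lower. Cyclin A2 (Ccna2) was at 36.7, 40.1 and 45.9 RPKM against 157, 150 and 157 RPKM (-1.92 ± 0.09, adjusted p = 2.4e-09), and cyclin B2 (Ccnb2) at 11.1, 12.3 and 14.9 against 42.4, 39 and 45.1 RPKM. Mki67 (63.4 ± 3.78 against 73.7 ± 4.78 RPKM) and Pcna (182 ± 27.6 against 206 ± 13.4 RPKM), general markers of cycling cells, were not called. The D cyclins, which drive entry into the cycle, were exchanged. Ccnd2 was at 20.3, 16.1 and 9.47 against 1.28, 0.752 and 0.436 RPKM (4.1 ± 0.42, adjusted p = 4.7e-06) and Ccnd1 at 43.3, 39.3 and 47 against 102, 104 and 100 RPKM. Cyclin E1 (Ccne1) was higher (14.9 ± 1.2 against 6.25 ± 0.433 RPKM), as were Rb1 (3.72 ± 0.526 against 1.43 ± 0.159 RPKM) and its relative Rbl2 (3.06 ± 0.144 against 1.27 ± 0.0783 RPKM), while Cdkn1a (2.76 ± 0.754 against 1.9 ± 0.417 RPKM) and Myc (16.4 ± 3.82 against 12.2 ± 0.347 RPKM) were not called.

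**Figure D5:**
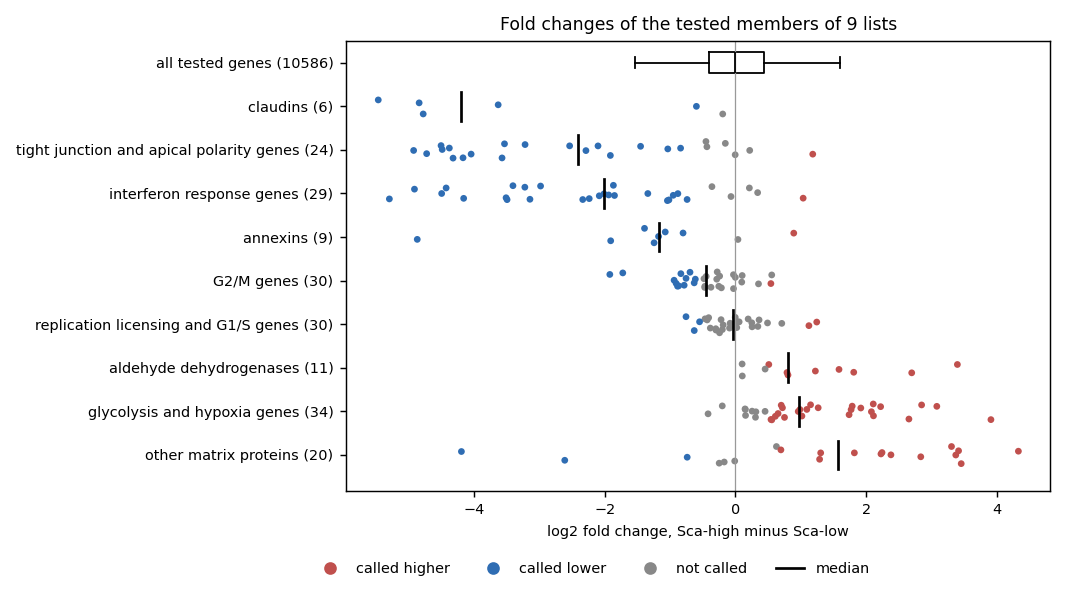
Log2 fold change, Sca-high minus Sca-low, of each tested member of 9 gene lists (points, coloured by call, with a line at the list median) beside all 10586 tested genes (box at the quartiles, whiskers at the 5th and 95th percentiles). Claudins, tight junction and interferon response genes have medians of -4.2, -2.41 and -2.01, and the G1/S list has one of -0.04.

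Among genes of p53, 11 of 27 tested were higher and 3 lower, which is 51.9% called beside 40.4% of all tested genes. Trp53 itself was not called (33.4 ± 2.8 against 26 ± 1.43 RPKM), nor was its target Mdm2 (7.82 ± 0.269 against 5.74 ± 0.283 RPKM), and Ddb2, a DNA repair target, was lower (0.957 ± 0.0145 against 2.77 ± 0.173 RPKM). Of the immediate early genes, Jund (11.5 ± 0.503 against 39.7 ± 4.87 RPKM), Klf6 (9.58 ± 0.397 against 32 ± 0.419 RPKM) and Klf2 (0.141 ± 0.0287 against 2.32 ± 0.206 RPKM) were lower, Egr1 was higher (10.6 ± 3.98 against 3.48 ± 0.53 RPKM) and Fos was not called (3.17 ± 0.147 against 3.3 ± 0.0622 RPKM). The Hippo effector Yap1 was higher (9.57 ± 2.01 against 4.08 ± 0.364 RPKM), whereas among its well-known targets Ankrd1 was at 0.571, 0.648 and 0.605 against 9.22, 9.44 and 9.92 RPKM (-3.77 ± 0.08, adjusted p = 9.1e-12), Ctgf at 4.59, 3.84 and 3.17 against 9.07, 9.93 and 9.78 RPKM, and Cyr61 was not called (33.5 ± 2.5 against 44.4 ± 1.93 RPKM). Factors of regional identity were higher for 6 of 8 tested Hox genes, led by Hoxb9 at 7.93, 6.78 and 7.59 against 1.54, 1.33 and 1.28 RPKM (2.35 ± 0.09, adjusted p = 5.3e-10). Sox12, Sox15, Sox2 and Sox11 were higher, Sox15 at 2.64, 2.93 and 3.57 against 0.317, 0.249 and 0.406 RPKM, and Tbx15 (0.437 ± 0.0547 against 3.63 ± 0.215 RPKM) and Msx2 (0.0429 ± 0.0108 against 1.19 ± 0.13 RPKM) were lower.

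Guidance cues, ligands and receptors that steer cells and axons and sort cells at tissue borders, split between the fractions as well. Of 21 tested semaphorins, plexins and neuropilins 11 were higher and 6 lower. Sema6d was at 3.79, 3.9 and 4.1 RPKM against 0.161, 0.124 and 0.116 RPKM (4.11 ± 0.09, adjusted p = 9.3e-12), Plxnd1 at 4.71, 4.05 and 2.94 against 0.36, 0.212 and 0.242 RPKM, and Sema4f at 0.0654, 0.033 and 0.0282 against 2.19, 2.3 and 1.96 RPKM. Among ephrins and their receptors, the receptors Ephb2 (2.97, 2.9 and 2.61 against 0.2, 0.148 and 0.148 RPKM) and Epha4 (6.92, 7.22 and 8.58 against 1.25, 1.06 and 1.13 RPKM) were higher with the ligand Efnb1 (22.8 ± 2.5 against 8.49 ± 0.395 RPKM), and the ligands Efna3 and Efna4 were lower. The most abundant receptor, Epha2, was not called (36.3 ± 1.24 against 31.2 ± 1.62 RPKM). Slit2, a ligand of Robo receptors, was higher (4.31 ± 0.988 against 1.15 ± 0.175 RPKM) and Robo1 was not called (1.68 ± 0.274 against 1.3 ± 0.0765 RPKM).

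Annexins, which bind membranes in the presence of calcium, were lower in Sca-high cells for 7 of 9 tested members (median -1.18). Anxa6 was at 1.95, 1.91 and 2.25 RPKM against 60.6, 58.8 and 67.7 RPKM (-4.87 ± 0.09, adjusted p = 4.9e-12) and Anxa5, the protein used to detect dying cells, at 36.8, 35.7 and 43.1 against 145, 141 and 147 RPKM. Anxa8 was higher (44.9 ± 3.76 against 24.2 ± 2.53 RPKM) and Anxa4 was not called (19.98 ± 1.95 against 19.4 ± 0.217 RPKM). The S100 calcium-binding proteins gave 6 lower and 1 higher of 12 tested. S100a1 was at 0.514, 0.448 and 0.585 against 18.6, 16.7 and 20.3 RPKM, while S100a4, a protein of motile and mesenchymal cells, was at 321, 390 and 462 against 68.9, 56.6 and 65.4 RPKM (2.61 ± 0.16, adjusted p = 4.2e-08). Of the imprinted genes tested, Phlda2, a restraint on placental growth, was at 0.207, 0.0935 and 0.279 against 7.62, 7.25 and 8.04 RPKM (-4.78 ± 0.23, adjusted p = 4.4e-09).

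The levels in the 6 vector-carrying Sca-high libraries are given side by side, as those cells differ from the uninfected cells in vector and handling and no test was made. For the 15 genes named for the largest rises, every Sca-high NT library lay above every Sca-low library, but in 8 of them the NT mean was under 50% of the uninfected Sca-high mean. Krt5 was at 503 RPKM in Sca-high NT and 502 RPKM in Sca-high cells, while Mgll was at 1.49 and 14.5 RPKM and Myl9 at 0.993 and 9.7 RPKM. None of the 15 genes named for falls had its NT libraries above the Sca-low libraries. Epcam was at 0.62 RPKM in NT cells against 2.54 RPKM in uninfected Sca-high cells and Oasl1 at 0.00231 against 0.0124 RPKM. Among genes not called between uninfected Sca-high and Sca-low cells, 3 that were chosen after their values were seen had higher mean levels in NT cells, Il1a (20.8 and 25.3 RPKM, and 568 RPKM in NT), Cxcl1 (21 and 25.2 RPKM, and 476 RPKM) and Krt17 (50.9 and 64.5 RPKM, and 612 RPKM). Trp63 was at 15.8 RPKM in NT cells and 18.3 RPKM in uninfected Sca-high cells.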

How the data were processed

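RNA was measured in 12 libraries of sorted CommaDβ cells, built from total RNA (Illumina TruSeq). Per the submitters' processing notes, reads were aligned with TopHat2 2.0.6 and the build was mm9. For read counter, annotation and strand the sources used here give nothing. The authors deposited 1 table of 21853 genes whose per-library columns are titled as raw reads but hold RPKM, of which 182 genes have no symbol. Its columns of the authors' own fold changes, p-values and selected genes were not used. Depths come from whole reads, obtained from the step of each gene's RPKM and the deposited signal column that holds the authors' mean of normalised reads over libraries.

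Deposited RPKM values were scaled between libraries by trimmed means of M-values (trim 30% of M, 5% of A), and a gene was tested where 3 or more of the 12 libraries reached 1 RPKM. A gene that reached it only in Sca-low or only in uninfected Sca-high libraries had the direction of its change set by that filter. Log2(RPKM + 0.1) was fitted with limma 3.58.1 (trend) in R 4.3.3 as 4 group means over all 12 libraries (8 residual and 3.29 prior degrees of freedom), with Benjamini-Hochberg adjustment over all 10586 genes tested. Because of the pseudocount, the log2 change understates the change of low genes. The test was also run on simulated reads in which few genes changed between Sca-high and Sca-low, unlike here. That run is therefore no check of scaling or error rates in these data. Tables and figures were made with Python 3.11.15, numpy 2.4.6, pandas 2.3.3 and matplotlib 3.10.9.

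Groups followed the sort labels. The named genes were the 15 called genes with the largest rise and the 15 with the largest fall, given no overlap and a higher group mean of at least 5 RPKM (predicted genes and ribosomal pseudogenes left out), the key genes of each list, the 3 largest called rises and falls of each list with a mean of 1 RPKM or more in the higher group, and every tested member of lists of 10 or fewer. Members and lists were chosen with earlier results of these data known. Gene symbols were matched by Entrez ID to RefSeq (21615 of 21671). Alternatives changed the scaling, filter, pseudocount, threshold, libraries and unit tested.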

Additional observations from a re-analysis of the deposited data

How the results depend on the processing

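No gene called between Sca-high and Sca-low cells reversed under any alternative. The 4272 calls became 1995 (1092 higher, 903 lower) with an adjusted p below 0.05 and a log2 change beyond 1. Higher genes numbered 1392 when 1 RPKM or more was required in every one of the 6 libraries, a filter that removes genes off in 1 group by construction. Calls numbered 4324 with no scaling (2477 higher, 1847 lower), 4256 with upper quartile scaling, 5547 of 18850 genes with no filter, 5905 with no minimum fold, 4343 and 3566 with pseudocounts of 0.01 and 1, 4284 with only the 6 libraries in the model, and 4329 with limma-voom on recovered reads. Leaving out each library in turn gave 3981 to 4673 calls, of which 1936 to 2314 were higher and 2036 to 2359 lower, with the most calls without library 3. Among the 427 named genes tested, 2 to 14 lost the call and 0 to 6 gained it per alternative that tested them all, and a pseudocount of 1 lost the most. The filter on every one of the 6 libraries left 264 of them, with no call changed. It cut the lower claudins from 5 to 1, tight junction genes from 18 to 6 and interferon response genes from 24 to 6. The higher EMT factors fell from 9 to 3. No paired analysis was possible because the columns carry a running number and no replicate number. Depth limits the microRNA entries, where a few reads decide the value, and genes that reached 1 RPKM in fewer than 3 libraries, which were not tested. Relative to the median of all genes, which moved to 0.0773 with no scaling, directions were as given.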
